A study of Homo sapiens with 12 samples.

Results

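The mRNAs described here belong to 10 genes that mark epithelial cells: the keratins KRT7, KRT8, KRT18, KRT19, KRT80 and KRT81, the tight junction proteins CLDN1 and CLDN4, the adherens junction cadherin CDH1, and the adhesion molecule EPCAM. They were picked by symbol, and the transcripts of each symbol were summed. They are 10 of 24559 gene symbols in the table. The libraries hold RNA from polysomes, the fractions of a sucrose gradient in which several ribosomes sit on each mRNA, taken from MDA-MB-231, SUM159 and BT549, established human triple-negative breast cancer (TNBC) cell lines. The study asked how TRMT112, a small protein that activates several RNA and protein methyltransferases, shapes which mRNAs are translated. MDA-MB-231 and SUM159 carried a TRMT112 shRNA vector (KD) or the control that the labels call EV, which the methods describe as a non-silencing shRNA, and were selected with puromycin. BT549 carried a TRMT112 open reading frame (OE) or its empty expression vector (EV), and was selected with G418. The labels give no treatment for any group, and the sources do not say whether the transfected cells were kept as pools or clones. Each of the 6 groups has 2 libraries, and the sources do not say whether these came from separate cultures, so the p-values measure the spread between libraries, which may be technical. The lines were also grown in different media (SUM159 with insulin and hydrocortisone, BT549 in RPMI), so line, vector and medium cannot be told apart in comparisons of one EV group with another.

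Keratins are the intermediate filament proteins of epithelia. A type I keratin pairs with a type II keratin, and KRT8 (type II) with KRT18 (type I) is the pair of simple, single-layered epithelia, with KRT7 (type II) and KRT19 (type I) as further partners in ducts such as those of the breast. KRT80 is a type II keratin of epithelial filaments near the cell margin, and KRT81 is a type II hair keratin. Claudins seal the space between neighbouring epithelial cells at tight junctions, E-cadherin (CDH1) holds cells together at adherens junctions, and EPCAM is a surface adhesion molecule of most simple epithelia. In an epithelial-mesenchymal transition cells lose E-cadherin, claudins and keratins and gain vimentin, and MDA-MB-231, SUM159 and BT549 are commonly classed among the mesenchymal-like, claudin-low TNBC lines.

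The total of expected counts per library lay between 22954226 and 27434677. TRMT112 had 4147 and 3938 normalized counts in MDA-MB-231 EV and 1764 and 1682 in KD, 6332 and 6566 in SUM159 EV and 3908 and 3699 in KD, and 3076 and 3087 in BT549 EV against 4286 and 4319.5 in OE. It fell by 1.23 and 0.76 on the log2 scale in the KD lines and was 0.48 higher in OE, with the direction given by the labels. VIM, the mesenchymal filament protein, had between 16820.5 and 47474 normalized counts in each library. Of the receptors that TNBC lacks, ESR1 has no row in the table and PGR had at most 9 counts in any library, while ERBB2, which is not amplified in TNBC, had means of 1475, 2693 and 3360 normalized counts in the EV groups of MDA-MB-231, SUM159 and BT549. The table lists no transcript that is at 0 in all 4 BT549 libraries, so a transcript found in the other lines alone is not counted here, and the levels of CDH1, EPCAM, CLDN4, KRT8, KRT18 and KRT19, which miss some annotated transcripts, may be understated in MDA-MB-231 and SUM159.

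Several of these mRNAs were near the counting floor, defined as at most 10 counts in each library of a group. CDH1 was there in all 4 groups of MDA-MB-231 and SUM159, EPCAM in all 4 groups of SUM159 and BT549, KRT18 in both BT549 groups, KRT8 in BT549 EV, and KRT19 in every group except BT549 EV. KRT81 was low in SUM159 and BT549, with 5 to 96 counts in those 8 libraries. CLDN1, CLDN4, KRT7 and KRT80 were above the floor in all 6 groups. All 10 genes passed the filter on low counts, CDH1, EPCAM and KRT19 on the strength of a few groups where they were higher. A count of 0 allows up to 3 counts at this depth, and no fold is given where both groups are near the floor. No molecular identifiers were used, so such limits speak of counting error alone.

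Normalized counts here are counts scaled for library size and composition by TMM, and a gene is called where edgeR's quasi-likelihood test, fitted to all 12 libraries and adjusted by Benjamini-Hochberg over 16538 genes, gave an adjusted p under 0.05. In MDA-MB-231 KD, 6 of the 10 mRNAs were higher (CLDN4, KRT7, KRT81, KRT80, KRT8 and KRT18) and 1 was lower (CLDN1). Of all genes tested in that comparison, 37.7% were called, 21.2% as higher and 16.5% as lower. In SUM159 KD, 4 were higher (KRT81, KRT80, CLDN4 and KRT8) and 3 were lower (CLDN1, KRT7 and KRT18), where 60.1% of all genes were called, 28.6% as higher and 31.4% as lower. In BT549 OE none was called higher and 6 were lower (KRT80, KRT7, KRT19, CLDN1, CLDN4 and CDH1, or 5 without KRT19, which passed the filter on low counts only through BT549 EV), where 70.6% of all genes were called, 35.6% as higher and 35.0% as lower. The count of higher calls in BT549 OE was also 0 at an unadjusted p under 0.05 and with DESeq2. The median log2 fold change of the 10 mRNAs was 0.52 in MDA-MB-231 KD, 0.40 in SUM159 KD and -2.16 in BT549 OE, against 0.00, 0.00 and 0.02 over all genes tested. With genes at 0 set to their counting bound the medians were 0.52, 0.00 and -1.68. Counting only called genes whose log2 fold change was 1 or more in size, 3 of the 10 were called in MDA-MB-231 KD, 4 in SUM159 KD and 6 in BT549 OE, against 3.20%, 15.7% and 31.3% of all genes. The 6 in BT549 OE were the same mRNAs as above, or 5 without KRT19. They include CDH1, whose call was lost when any BT549 library was left out. In bulk libraries, fewer cells with an mRNA and less of it per cell cannot be told apart, and without total RNA libraries a change in mRNA amount and a change in ribosome loading cannot be told apart either.

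**Figure D1:**
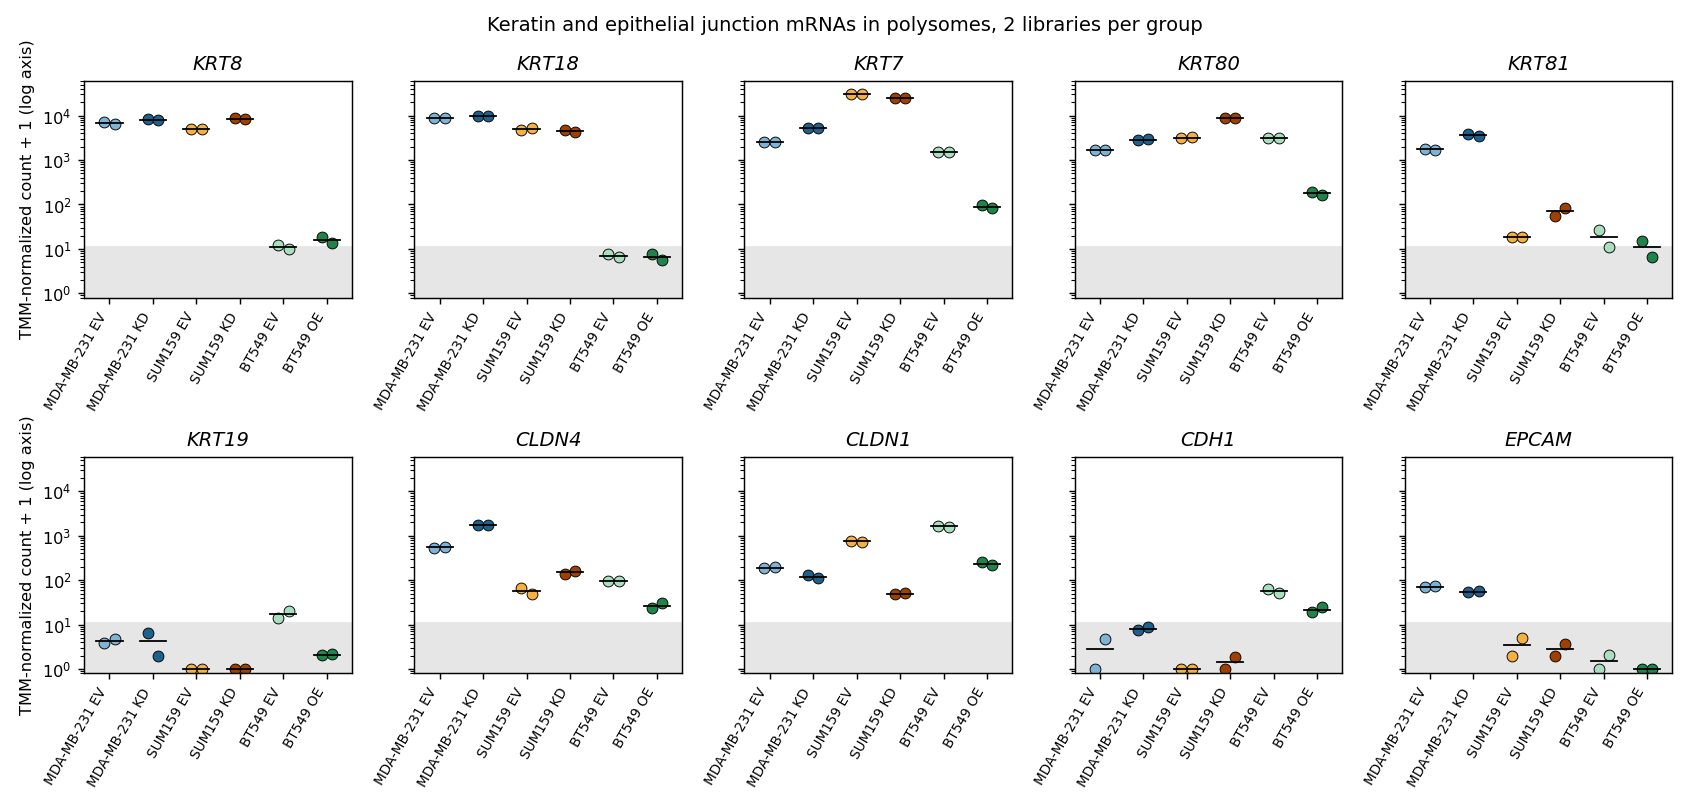
TMM-normalized counts plus 1 (log axis) of the 10 mRNAs in the 6 groups, where each point is a library, each short line a group mean of 2 libraries, and the grey band covers up to 10 normalized counts. KRT8 and KRT18 sit at 4375 or more in MDA-MB-231 and SUM159 and at 17.7 or less in BT549, and KRT7 and KRT80 drop from BT549 EV to OE.

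**Figure D2:**
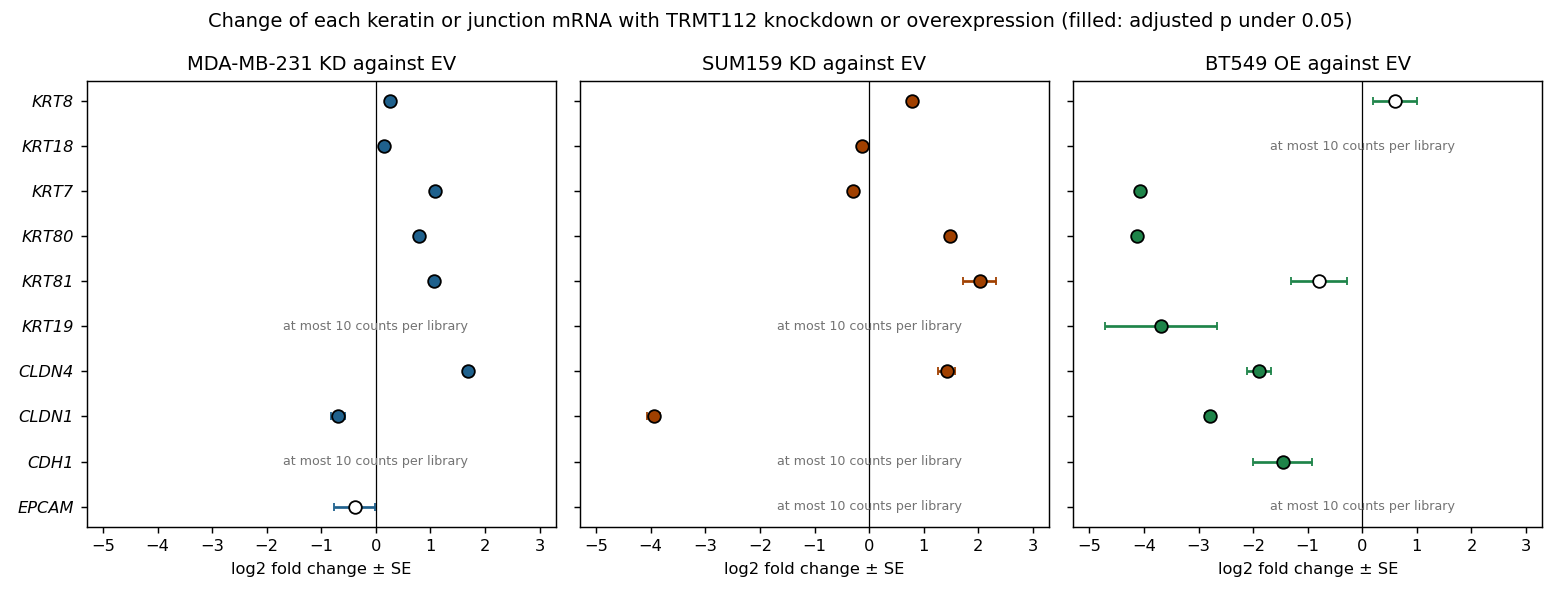
Fitted log2 fold change ± SE (x axis) of each mRNA (y axis) in MDA-MB-231 KD, SUM159 KD and BT549 OE, each against its EV group with 2 libraries a group, where filled points are called. CLDN4, KRT80 and KRT81 lie to the right of 0 in both KD panels, and each called mRNA lies to the left of 0 in BT549 OE. The filled KRT19 point there is no test, since KRT19 passed the filter on low counts only through BT549 EV.

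KRT8, the type II member of the simple epithelial pair, had 7008 and 6633 normalized counts in MDA-MB-231 EV and 8234 and 8066 in KD. In SUM159 it had 4910.1 and 4944 in EV and 8738.5 and 8311 in KD. BT549 EV had 10.9 and 8.86 and OE 17.7 and 12.4. So KRT8 was abundant in MDA-MB-231 and SUM159 and close to the floor in BT549, and the 2 libraries of each KD group lay above those of their EV group. It rose by a log2 fold change of 0.26 ± 0.03 (SE) in MDA-MB-231 KD (adjusted p = 2.32e-06) and by 0.79 ± 0.04 in SUM159 KD (adjusted p = 3.33e-15). Tested by its main transcript alone, the MDA-MB-231 value was 0.361 (adjusted p = 0.472) and no longer called. In BT549 OE the value was 0.60 ± 0.40 (adjusted p = 0.202), and the ratio of the counts was 1.52 with an exact 95% counting interval of 0.81 to 2.94. Among the EV groups KRT8 was 689-fold lower in BT549 than in MDA-MB-231 and 497-fold lower than in SUM159, with adjusted p of 3.63e-28 and 2.85e-27. With the counts of KRT8 pseudogenes added these folds were 123 and 88.9, since the pseudogenes had 53.9 and 28.6 counts in BT549 EV, more than KRT8 itself.

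KRT18, the type I partner of KRT8, had 8898 and 8677 normalized counts in MDA-MB-231 EV, 9858 and 9689 in KD, 4731 and 5134 in SUM159 EV, and 4654 and 4375 in SUM159 KD. BT549 EV had 6.57 and 5.54, and BT549 OE had 6.64 and 4.53. KRT18 therefore followed the same split between lines as KRT8, and its changes with KD were small. MDA-MB-231 KD gave a log2 fold change of 0.15 ± 0.04 (adjusted p = 0.00154). SUM159 KD gave -0.13 ± 0.04 (adjusted p = 0.00648). Neither call held under every setting: scaling by library size alone left 0.063 in MDA-MB-231 (adjusted p = 0.157), DESeq2 left -0.074 in SUM159 (adjusted p = 0.141), and without replicate 2 of SUM159 EV or of SUM159 KD the latter was -0.073 and -0.080 (adjusted p = 0.185 and 0.142). KRT18 in BT549 EV was 1452-fold lower than in MDA-MB-231 EV, resting on 6 and 5 counts, with a ratio of 0.000689 (exact 95% counting interval 0.000344 to 0.00123), and the fold was 566 with pseudogene counts added.

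KRT7, a keratin of ducts and glands, was the most abundant of the 10 mRNAs in SUM159. It had 30344 and 31001 normalized counts in SUM159 EV and 25401 and 24382 in KD. MDA-MB-231 EV had 2514 and 2489 and KD 5344 and 5202. BT549 EV had 1499 and 1486 and OE 96.3 and 80.4. The groups did not overlap in any of the 3 lines, and the direction differed between them. KRT7 was 2.11-fold higher in MDA-MB-231 KD (log2 1.08 ± 0.03, adjusted p = 2.11e-16), 1.23-fold lower in SUM159 KD (-0.30 ± 0.03, adjusted p = 1.92e-09) and 16.9-fold lower in BT549 OE (-4.08 ± 0.08, adjusted p = 7.86e-23). Among EV groups SUM159 was 12.3-fold above MDA-MB-231 (adjusted p = 1.59e-28) and MDA-MB-231 was 1.68-fold above BT549 (adjusted p = 2.17e-14).

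KRT80 was the keratin with the most even level across the EV groups. It had 1680.2 and 1642 normalized counts in MDA-MB-231 EV, 3121 and 3218 in SUM159 EV, and 3129 and 3075 in BT549 EV. The KD groups were higher, with 2768 and 2964 in MDA-MB-231 and 8754 and 8996 in SUM159, and the OE group fell to 189 and 166. KRT80 rose 1.73-fold in MDA-MB-231 KD (log2 0.79 ± 0.04, adjusted p = 1.71e-12) and 2.80-fold in SUM159 KD (1.49 ± 0.04, adjusted p = 1.37e-19), and was 17.4-fold lower in BT549 OE (-4.12 ± 0.07, adjusted p = 3.94e-24). Between BT549 EV and SUM159 EV the libraries overlapped and no difference was called (log2 -0.03 ± 0.04, adjusted p = 0.493), although the value was -0.24 (adjusted p = 7.08e-06) when scaled by library size alone. That scaling moved the median of all genes by -0.21 in this comparison and by -0.31 between the EV groups of BT549 and MDA-MB-231, and by less than 0.1 in each KD and OE comparison.

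KRT81, a hair keratin, was high in MDA-MB-231 and low elsewhere. MDA-MB-231 had 1801.5 and 1725 normalized counts in EV and 3834.5 and 3525 in KD. SUM159 had 17.2 and 17.1 in EV and 55.5 and 83.0 in KD, and BT549 had 25.2 and 9.97 in EV and 14.4 and 5.66 in OE. KRT81 rose 2.09-fold in MDA-MB-231 KD (log2 1.06 ± 0.07, adjusted p = 2.45e-11) and 4.04-fold in SUM159 KD (2.03 ± 0.30, adjusted p = 3.67e-06), the latter from 17 counts in each EV library to 55 and 96. In BT549 the groups overlapped and the change was -0.80 ± 0.51 (adjusted p = 0.172). This value rested on the EV library with 23 counts: without BT549 EV replicate 1 it was 0.01, and without replicate 2 it was -1.32 (adjusted p = 0.0297). MDA-MB-231 EV was 103-fold above SUM159 EV (adjusted p = 4.11e-21) and 100.3-fold above BT549 EV (adjusted p = 3.78e-21), and the EV groups of SUM159 and BT549 overlapped.

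KRT19, the smallest of the simple epithelial keratins, was nearly absent. It had 3 and 4 counts in MDA-MB-231 EV, 6 and 1 in KD, 0 in all 4 SUM159 libraries, 12 and 17 in BT549 EV, and 1 and 1 in BT549 OE. The libraries of BT549 EV lay above all others. KRT19 passed the filter on low counts only through that group, so its calls against it are no test and its values are a description. The ratio of OE to EV counts in BT549 was 0.0701, with an exact 95% counting interval from 0.00811 to 0.277, and BT549 EV was at least 5.28-fold above SUM159 EV, taking 3 counts per library as the level that a 0 allows.

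On the TPM scale, which corrects for transcript length and library size, keratins can be set beside each other. KRT18 led in MDA-MB-231 EV with 541 and 528 TPM, ahead of KRT8 with 333.5 and 319.7 TPM, KRT7 with 136 and 135, KRT81 with 80.3 and 77.0, and KRT80 with 37.2 and 36.4. In SUM159 EV the order was KRT7 with 1436 and 1452 TPM, KRT18 with 253 and 271, KRT8 with 209 and 206, and KRT80 with 60.9 and 62.0. BT549 EV had KRT7 at 64.0 and 62.4 TPM and KRT80 at 52.9 and 52.5 TPM, with KRT8, KRT18 and KRT19 below 1 TPM each. Among keratins with a row, KRT18 was thus the main keratin mRNA in MDA-MB-231 EV and KRT7 in SUM159 EV and BT549 EV. No row exists for 41 others, KRT5, KRT6A and KRT16 among them. Keratins found in MDA-MB-231 or SUM159 alone would be missing from the sums and shares below. Summed over the 14 keratins with a row in the table, the level was 1210 and 1173 TPM in MDA-MB-231 EV and 1495 and 1479 in KD, 2051 and 2082 in SUM159 EV and 1903 and 1851 in KD, and 149.8 and 148 in BT549 EV against 62.8 and 61.4 in OE. In BT549 OE a keratin that is not among the 10, KRT10, a type I keratin of stratified epithelia, made up 86.1% of the keratin TPM (mean of 2 libraries), against 19.6% in EV, while the mean share of KRT7 went from 42.4% to 6.92% and that of KRT80 from 35.4% to 4.84%.

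The balance of type II to type I mRNA among keratins with a row followed from these levels. For MDA-MB-231 and SUM159 it leaves out any keratin not counted in BT549. The summed type II TPM divided by the summed type I TPM was 0.972 and 0.965 in MDA-MB-231 EV and 1.41 and 1.39 in KD. SUM159 had 5.00 and 4.82 in EV and 5.36 and 5.50 in KD. BT549 had 3.85 and 3.67 in EV and 0.166 and 0.139 in OE. The libraries of KD lay above those of EV in both lines, and those of OE below EV. With 2 libraries against 2 no exact permutation test of such a ratio can reach 0.05, and none was run.

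**Figure D3:**
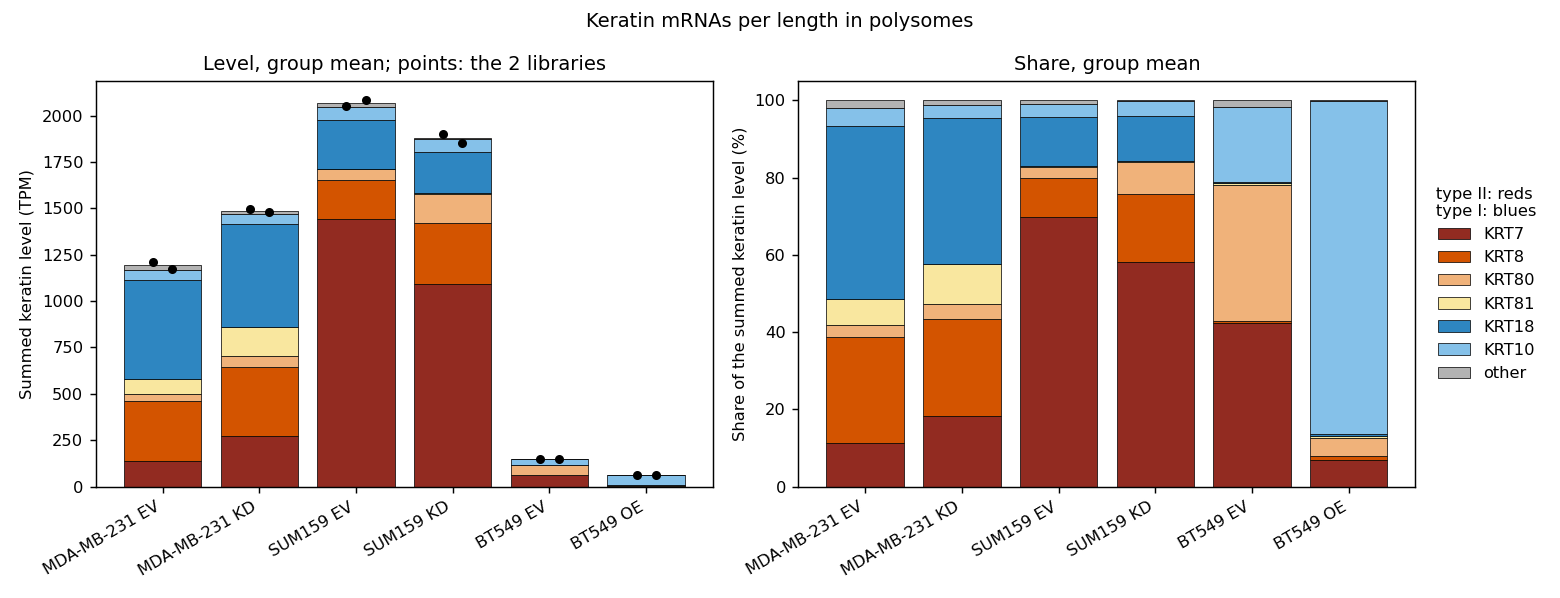
Summed level in TPM of the keratins with a row (left, bars are group means of 2 libraries and points the libraries) and the share of each in percent (right, group means). Type II keratins are in reds and yellow and type I keratins in blues. KRT7 fills most of the SUM159 bars, KRT18 and KRT8 most of the MDA-MB-231 bars, and KRT10 makes up 86.1% of the small BT549 OE bar.

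The keratin genes of chromosome 12 lie in the order KRT80, KRT7, KRT81, KRT8 and KRT18 in GENCODE 44 (GRCh38). KRT80 occupies 52168996 to 52192014 on the minus strand, KRT7 52232520 to 52252186 on the plus strand, and KRT81 52285913 to 52291534 on the minus strand, with 40505 and 33726 bases between them. KRT8 (52897187 to 52949954, minus) and KRT18 (52948871 to 52952906, plus) follow after 605652 bases and overlap by 1084 bases on opposite strands. KRT19 lies in the type I cluster on chromosome 17 (41523617 to 41528308, minus). KRT81 lies wholly inside the annotated span of KRT86, a hair keratin of the opposite strand, and KRT7 shares 2887 bases with KRT86 on the same strand. The strand setting of the authors' counting is not given in the sources used here, so counts of KRT81 and KRT86 are uncertain where they overlap. KRT86 itself had 218 and 184.5 normalized counts in MDA-MB-231 EV and 253 and 248 in KD (log2 0.31 ± 0.14, adjusted p = 0.0893), rose in SUM159 KD from 62.6 and 72.4 to 126 and 124 (0.89 ± 0.18, adjusted p = 0.000136), and went from 17 and 15 counts in BT549 EV to 1 and 1 in OE. KRT8 and KRT18 have many processed pseudogenes, and adding the counts of those in the table changed no call, although it lowered the folds between BT549 EV and the other lines as given above.

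CLDN4 and CLDN1 are the claudins of the set. CLDN4 lies on chromosome 7 (73799542 to 73832690, plus strand) and CLDN1 on chromosome 3 (190305707 to 190322446, minus strand). Since both changed in every line and parted in direction with KD, the 250 bases before their start are shown, read from the RefSeq promoter table of build GRCh38.p14, which held 3 of the 10 genes (CLDN1, CLDN4 and KRT8). The RefSeq starts of the 2 claudins match the start of their main GENCODE transcript. For CLDN4 that transcript held 17.8% and 38.6% of the counts in SUM159 EV and 25.7% and 18.7% in KD. The window is not placed at the start of the longer CLDN4 transcripts, which took most counts in SUM159. Capitals mark matches to TGANTCA, the letters bound by AP-1 factors, which reads the same on both strands.
CLDN4, chr7:73830746-73830995, plus strand: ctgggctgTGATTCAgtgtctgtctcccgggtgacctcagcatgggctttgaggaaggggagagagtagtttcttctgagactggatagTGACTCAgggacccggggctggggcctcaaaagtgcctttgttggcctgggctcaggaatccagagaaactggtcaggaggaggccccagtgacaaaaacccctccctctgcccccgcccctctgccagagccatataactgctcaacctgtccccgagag
CLDN1, chr3:190322447-190322696, minus strand: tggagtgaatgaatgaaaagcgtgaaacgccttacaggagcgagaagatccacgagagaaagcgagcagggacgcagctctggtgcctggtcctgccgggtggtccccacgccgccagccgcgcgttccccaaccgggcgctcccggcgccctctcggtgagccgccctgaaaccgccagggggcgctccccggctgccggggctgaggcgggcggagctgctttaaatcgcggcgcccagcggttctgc
The CLDN4 window holds 2 matches, from 242 to 236 and from 161 to 155 bases before the start, and the CLDN1 window holds none, where 6.57% of 35116 RefSeq promoters have a match in the same 250 bases. Neither window holds the E-box CACCTG or its reverse complement CAGGTG, the letters bound by ZEB and SNAI repressors, which 17.5% of promoters hold, nor CCAAT (32.0%, either strand) or TATAAA (10.7%, either strand). The CLDN1 window is 68.8% G and C with 28 CpG, and the CLDN4 window 58.8% with 4. A match is a description of letters and not of binding.

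CLDN4 had 542 and 548 normalized counts in MDA-MB-231 EV and 1765 and 1749.6 in KD. SUM159 had 64.6 and 47.2 in EV and 136 and 163 in KD, and BT549 had 95.3 and 96.3 in EV and 22.2 and 29.4 in OE. KD groups lay above EV in both lines and OE below EV, with no overlap. CLDN4 rose 3.23-fold in MDA-MB-231 KD (log2 1.69 ± 0.08, adjusted p = 7.88e-14) and 2.67-fold in SUM159 KD (1.42 ± 0.16, adjusted p = 3.67e-08), and was 3.71-fold lower in BT549 OE (-1.89 ± 0.22, adjusted p = 5.12e-08). MDA-MB-231 EV was 9.74-fold above SUM159 EV (adjusted p = 6.7e-17) and 5.69-fold above BT549 EV (adjusted p = 1.58e-15). The 6 groups ran in the order MDA-MB-231 KD, MDA-MB-231 EV, SUM159 KD, BT549 EV, SUM159 EV and BT549 OE, and no neighbours in that order overlapped.

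CLDN1 was highest in the EV groups of BT549 and SUM159 and lower wherever TRMT112 had been altered. It had 1654 and 1610.0 normalized counts in BT549 EV and 255 and 214 in OE, 775 and 734 in SUM159 EV and 48.4 and 49.3 in KD, and 188 and 194.5 in MDA-MB-231 EV against 127 and 109 in KD. The groups did not overlap in any line. CLDN1 was 15.4-fold lower in SUM159 KD (log2 -3.94 ± 0.12, adjusted p = 2.54e-18), 6.97-fold lower in BT549 OE (-2.80 ± 0.09, adjusted p = 1.29e-18) and 1.62-fold lower in MDA-MB-231 KD (-0.69 ± 0.12, adjusted p = 8.38e-05). It thus fell with the knockdown in MDA-MB-231 and SUM159 and with the overexpression in BT549. Among EV groups BT549 was 8.53-fold and SUM159 3.94-fold above MDA-MB-231 (adjusted p = 8.21e-20 and 2.39e-15), whereas CLDN4 was highest in MDA-MB-231 EV.

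CDH1 (chromosome 16, 68737292 to 68835537, plus strand) had 0 and 4 counts in MDA-MB-231 EV, 7 and 8 in KD, 0 and 0 in SUM159 EV, 0 and 1 in SUM159 KD, 58 and 46 in BT549 EV, and 16 and 21 in BT549 OE. Its highest level was thus in BT549 EV, at 1.44 and 0.872 TPM. In BT549 OE it was 2.76-fold lower (log2 -1.46 ± 0.54, adjusted p = 0.0204) with no overlap, but the call was lost when any of the 4 BT549 libraries was left out, with adjusted p of 0.133 without EV replicate 1, 0.0533 without EV replicate 2, 0.14 without OE replicate 1 and 0.0633 without OE replicate 2. Of all CDH1 counts 61.8% were assigned to transcripts annotated as protein-coding, and a test of the main transcript alone gave -1.88 (adjusted p = 0.504). BT549 EV was at least 18.9-fold above SUM159 EV, against 3 counts per library.

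EPCAM (chromosome 2, 47345158 to 47387601, plus strand) had 74 and 79 counts in MDA-MB-231 EV and 56 and 58 in KD, and between 0 and 4 counts in each of the 8 SUM159 and BT549 libraries. The MDA-MB-231 groups did not overlap, but the difference was not called (log2 -0.39 ± 0.37, adjusted p = 0.462). At this depth a change of that size could not be told from the spread. The EV ratio of SUM159 to MDA-MB-231 was 0.0355 (exact 95% counting interval 0.0114 to 0.0847), and that of BT549 to MDA-MB-231 was 0.00777 (0.000195 to 0.0439). EPCAM was highest in MDA-MB-231 and CDH1 in BT549.

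Across the EV groups, 9 of the 10 mRNAs were called between SUM159 and MDA-MB-231 (75.7% of all genes), 10 between BT549 and MDA-MB-231 (79.5%) and 7 between BT549 and SUM159 (78.4%). Each of these counts includes KRT19, and without it they were 8, 9 and 6. These still hold EPCAM in both comparisons with MDA-MB-231 EV and CDH1 in both comparisons with BT549 EV. EPCAM passed the filter on low counts through MDA-MB-231 and CDH1 through BT549, so these calls are a description and no test. These 3 comparisons share EV groups with each other and with the KD and OE comparisons.

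The KD changes of the 2 lines were compared directly as an interaction in the same fit (MDA-MB-231 change minus SUM159 change). It was called for 6 of the 10 mRNAs, against 50.9% of all genes, and for 2 (CLDN1 and KRT7) when an absolute difference of at least 1 was also required, against 15.0% of all genes. The difference was 3.25 ± 0.19 for CLDN1 (adjusted p = 8.18e-13), which fell further in SUM159, and 1.38 ± 0.04 for KRT7 (adjusted p = 3.04e-17), which rose in MDA-MB-231 and fell in SUM159. KRT18 gave 0.28 ± 0.05 (adjusted p = 9.28e-05, but 0.164 for the main transcript alone). Larger rises in SUM159 gave -0.53 ± 0.05 for KRT8 (adjusted p = 2.98e-09, but 0.414 for the main transcript alone), -0.70 ± 0.06 for KRT80 (adjusted p = 4.18e-10) and -0.97 ± 0.33 for KRT81 (adjusted p = 0.0168). The KRT81 call was lost without SUM159 EV replicate 1, without SUM159 EV replicate 2 or without SUM159 KD replicate 2 (adjusted p = 0.0812, 0.0825 and 0.182). For CLDN4 the difference was 0.27 ± 0.19 (adjusted p = 0.252), so a difference between the KD effects of the lines was not shown.

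Most genes were carried by a main transcript. KRT7-201 held between 98.4% and 99.1% of KRT7 counts in the MDA-MB-231 and SUM159 libraries and KRT18-201 between 92.6% and 98.3% of KRT18 counts there. KRT80 was split between KRT80-202 and KRT80-201: the share of KRT80-202 was 56.7% and 59.3% in MDA-MB-231 EV and 73.1% and 68.5% in KD, and 57.5% and 54.3% in SUM159 EV against 65.8% and 61.4% in KD. The KD libraries lay above the EV libraries in both lines, while the OE libraries of BT549 (52.1% and 77.5%, from 171 and 147 counts) lay on both sides of EV (71.5% and 68.8%). CLDN4-201 held 82.3% and 83.6% of CLDN4 counts in MDA-MB-231 EV and 97.8% and 97.6% in KD, but 17.8% and 38.6% in SUM159 EV and 25.7% and 18.7% in SUM159 KD, where the longer CLDN4 transcripts took most counts. Such shares are estimates, since reads shared by transcripts are divided between them, and they were not tested.

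Other genes of the same structures were counted from fixed lists. The counts of each list are to be read beside the shares of all genes called higher and lower. These shares were 21.2% and 16.5% in MDA-MB-231 KD, 28.6% and 31.4% in SUM159 KD, and 35.6% and 35.0% in BT549 OE. Some counts hold genes that passed the filter on low counts only through the EV group they are called against. NECTIN4 and KRT14 in SUM159 and CGN and EHF in BT549 were such genes, and their calls there are no test. Of 15 genes tested on the adherens junction list, 2 rose and 1 fell in MDA-MB-231 KD, 2 rose and 6 fell in SUM159 KD, and 7 rose and 6 fell in BT549 OE, with medians of 0.02, -0.01 and 0.20 (0.0 in BT549 with genes at 0 at their bound). NECTIN1, a nectin that starts cell contacts, fell from 5145 and 5282 normalized counts to 531 and 495 in SUM159 KD (log2 -3.35 ± 0.06, adjusted p = 5.44e-23) and rose in BT549 OE from 309 and 342 to 2185 and 2136 (2.73 ± 0.07, adjusted p = 1.29e-20). CDH3, P-cadherin, fell in BT549 OE from 3987 and 3794 to 300.1 and 338 (-3.61 ± 0.07, adjusted p = 2.95e-22), and AFDN, the nectin anchor, fell in SUM159 KD (-0.94 ± 0.08, adjusted p = 6.39e-10). VCL, which links cadherin contacts to actin, rose in BT549 OE (1.47 ± 0.06, adjusted p = 1.5e-16). NECTIN2 (0.32 ± 0.04, adjusted p = 1.06e-07) and ARVCF (0.34 ± 0.12, adjusted p = 0.0351) rose in MDA-MB-231 KD. CTNNBL1, which stands on that list by its name but encodes a spliceosome-associated protein, fell in both KD lines (-0.21 and -1.04). It is the 1 gene of the list counted as lower in MDA-MB-231 KD. In BT549 OE it is among the 7 that rose (0.88 ± 0.06, adjusted p = 3.24e-12).

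The tight junction list held 21 tested genes beside the 2 claudins above. There, 4 rose and 4 fell in MDA-MB-231 KD, 4 rose and 5 fell in SUM159 KD, and 1 rose and 13 fell in BT549 OE, with medians of -0.23, -0.09 and -1.29 (0.0 in SUM159 and -1.23 in BT549 with genes at 0 at their bound). OCLN, occludin, went from 408 and 395 counts in BT549 EV to 0 and 3 in OE, a ratio of 0.0038 (exact 95% counting interval 0.000782 to 0.0111). CLDN12 also fell in OE (-1.43 ± 0.06, adjusted p = 1.12e-15). CLDN11 fell in MDA-MB-231 KD from 1114 and 1123 normalized counts to 364 and 401 (-1.55 ± 0.10, adjusted p = 1.74e-11), and CLDN15 fell there as well (-0.80 ± 0.16, adjusted p = 0.000402). PARD3, a polarity protein, rose in MDA-MB-231 KD (0.25 ± 0.05) and fell in SUM159 KD (-0.70 ± 0.06), where the polarity scaffolds MPDZ (0.86 ± 0.11) and PATJ (1.07 ± 0.17) rose.

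Of 9 desmosome genes tested, 2 rose and 3 fell in MDA-MB-231 KD, none rose and 6 fell in SUM159 KD, and none rose and 6 fell in BT549 OE, with medians of -0.07, -0.40 and -2.47 (-1.66 in BT549 with genes at 0 at their bound). DSP, desmoplakin, which ties keratin filaments to the desmosome, had 325 and 291 counts in MDA-MB-231 EV and 217 and 178 in KD, 225 and 167 in SUM159 EV and 13 and 5 in KD, and 80 and 167 in BT549 EV against 1 and 0 in OE. PKP3, a plakophilin, went from 126 and 159 counts to 2 and 0 in BT549 OE, and PERP, a desmosomal membrane protein, fell there by 2.47 ± 0.07 (adjusted p = 5.93e-20). DSG2 (-0.73 ± 0.16) and PKP4 (-0.31 ± 0.03) fell in MDA-MB-231 KD, while PERP (0.23 ± 0.05) rose there and fell in SUM159 KD (-0.77 ± 0.05).

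Of 49 further keratins listed, 8 have a row in the table and 5 were tested, 1 of which fell in MDA-MB-231 KD, 2 rose and 2 fell in SUM159 KD, and 1 rose and 3 fell in BT549 OE. KRT17, a keratin of basal and stressed epithelia, fell in MDA-MB-231 KD from 97 and 64 counts to 21 and 27 (log2 -1.71 ± 0.31, adjusted p = 0.000146) and in SUM159 KD from 153 and 188 to 31 and 25 (-2.71 ± 0.29, adjusted p = 3.14e-08). KRT14, its basal relative, had 165 and 166 counts in SUM159 EV and 0 and 0 in KD, at least 59.7-fold lower against 3 counts per library. KRT14 passed the filter on low counts only through SUM159 EV, so its call there, counted above, is no test. KRT10 rose in BT549 OE (0.88 ± 0.05, adjusted p = 4.61e-13), and KRT15 went from 16 and 16 counts to 0 and 0 there, at least 5.25-fold lower. The called keratins of SUM159 KD were thus KRT7, KRT17 and KRT18 among those lower, with KRT14 as a description only. Among those higher were KRT8, KRT10 (0.11 ± 0.05, adjusted p = 0.0371), KRT80, KRT81 and KRT86.

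Of 15 epithelial regulators tested, 1 rose and 2 fell in MDA-MB-231 KD, 2 rose and 6 fell in SUM159 KD, and 2 rose and 6 fell in BT549 OE, with medians of 0.09, -0.99 and -0.895. TP63, the transcription factor of basal epithelia, fell in SUM159 KD from 1814 and 1903 normalized counts to 167 and 201 (log2 -3.33 ± 0.10, adjusted p = 1.69e-17), had 0 counts in all 4 MDA-MB-231 libraries, and went from 31 and 35 counts to 2 and 3 in BT549 OE. KLF4, a zinc finger factor of epithelial differentiation, fell in each line, with log2 fold changes of -0.75 in MDA-MB-231 KD, -1.76 in SUM159 KD and -2.39 in BT549 OE. KLF5 fell in SUM159 KD (-0.99 ± 0.08) and in BT549 OE (-1.11 ± 0.10), and SPINT2, a protease inhibitor, rose in MDA-MB-231 KD (0.25 ± 0.03), where AP1M2, a sorting adaptor of polarized epithelia, fell (-0.31 ± 0.11). GRHL2, a regulator of CDH1, had at most 5 counts in any library.

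Of 13 mesenchymal genes, 6 rose and 1 fell in MDA-MB-231 KD, 8 rose and 3 fell in SUM159 KD, and 5 rose and 5 fell in BT549 OE, with medians of 0.21, 0.36 (0.26 with genes at 0 at their bound) and 0.09. SPARC, a matricellular protein, rose in MDA-MB-231 KD (2.20 ± 0.07, adjusted p = 2.11e-16) and in BT549 OE (1.94 ± 0.03, adjusted p = 5.53e-24), and CDH11, a mesenchymal cadherin, rose in MDA-MB-231 KD (1.68 ± 0.09, adjusted p = 4.67e-13). FN1 (1.49 ± 0.04) and the receptor AXL (1.05 ± 0.03) rose in SUM159 KD, and ZEB2, a repressor of CDH1, fell there (-1.48 ± 0.08). SNAI2, another repressor of epithelial genes, rose in BT549 OE from 694 and 695 to 6572 and 6440 normalized counts (3.23 ± 0.05, adjusted p = 5.3e-24), while VIM (-1.47 ± 0.03, adjusted p = 1.53e-22) and AXL (-1.37 ± 0.03, adjusted p = 8.62e-23) fell in the same group. The other ZEB and SNAI repressors of the list went both ways there. SNAI1 rose (3.78 ± 0.26, adjusted p = 5.46e-12), ZEB1 fell (-1.11 ± 0.06, adjusted p = 6.89e-14) and ZEB2 was not called (-0.10 ± 0.07, adjusted p = 0.19). AXL rose in MDA-MB-231 KD (0.26 ± 0.02, adjusted p = 4.85e-09). The lower keratin and junction mRNAs of BT549 OE thus stood beside mesenchymal genes that moved in both directions. Markers of blood and endothelial cells were low but moved with the groups. Of 10 listed, 6 have a row in the table, and their summed normalized counts were 44.2 and 43.8 in MDA-MB-231 EV and 133 and 108 in KD, 49.4 and 63.3 in SUM159 EV and 118 and 138 in KD, and 19.7 and 18.8 in BT549 EV and 100.8 and 106 in OE. Most of the rise came from CDH5 in MDA-MB-231, PECAM1 in SUM159 and CD14 in BT549, while the leukocyte marker PTPRC had at most 16 counts in any library and CD3E, VWF and HBB have no row. All 4 that were tested were called higher in BT549 OE, where 35.6% of all genes were. CD14 went there from a mean of 13.2 to 88.5 normalized counts. CDH5 (0.0 to 2.82), HBA1 (0.0 to 3.91) and PECAM1 (0.547 to 4.48) were near the floor in both groups, so no rise is read from them. In MDA-MB-231 KD 1 rose (21.2% of all genes), and in SUM159 KD 1 rose and 1 fell (28.6% and 31.4%). The part of these markers in the results was not tested.

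**Figure D4:**
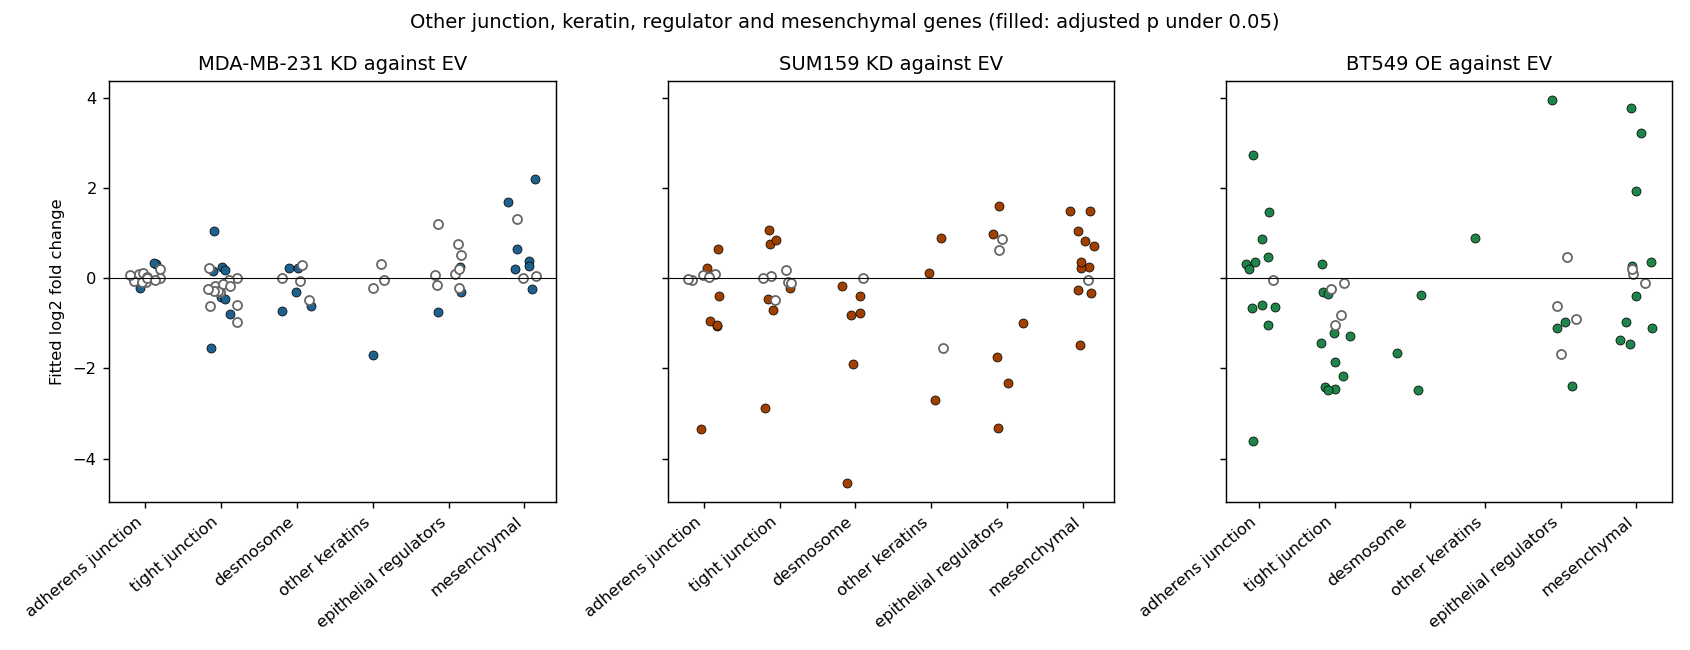
Fitted log2 fold change (y axis) of tested genes in 6 lists (x axis) for MDA-MB-231 KD, SUM159 KD and BT549 OE, each point a gene with more than 3 counts in a library of both groups, filled where called, and spread sideways at random. Points of the tight junction list lie mostly below 0 in BT549 OE, and those of MDA-MB-231 KD stay closer to 0 than those of the other lines.

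The genes whose levels ran most like those of each mRNA over the 6 groups were sought among the 12590 whose mean count reached 50, by the root mean square difference of the group mean log2 CPM (counts scaled to library size), each gene centred on its own mean. KRT18 was most like PTPRM (0.30) and KRT8 like PTPRM (0.55) and KRT18 (0.58). KRT80 was most like OPN3 (0.35), KRT7 like DUXAP10 (0.39), KRT81 like LINC00942 (0.40) and CLDN4 like SERTAD4 (0.43), whereas the nearest gene to CLDN1, NFKBIZ, differed by 0.62. Within the 7 of the 10 genes that reached that mean count (all but CDH1, EPCAM and KRT19), the closest pairs after KRT8 and KRT18 were CLDN4 with KRT81 (1.48) and KRT7 with KRT80 (1.49). These values describe 6 group means that share 3 lines.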

How the data were processed

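Polysome-associated RNA of 12 libraries was analysed, 2 for each of the 6 groups given by the sample labels. According to the methods, the authors used Trimmomatic for trimming, HISAT2 for alignment to GRCh38 and SAMtools for removing PCR duplicates, and the labels also name Partek. The library kit is a stranded total RNA kit in the methods and a poly(A) kit in the labels. The counting tool, annotation and strand setting are not given in the sources used here. The deposited table holds expected counts per transcript, not normalized. The other 8 columns, of MDA-MB-231 and SUM159, hold such counts too, with a missing mark in 5.08% of rows, taken as 0. Those marked rows carry 0.121% of the BT549 counts.

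Transcripts were matched to GENCODE 44 without versions (79.6% of them, at least 99.2% of the counts of each library), summed per symbol and rounded. The 10 genes and all lists were chosen with earlier results of these data known. Genes passing filterByExpr were scaled by TMM and fitted with edgeR 4.0.16 (R 4.3.3), quasi-likelihood, with every group given its own mean (6 residual degrees of freedom), and p-values were adjusted by Benjamini-Hochberg over 16538 genes. The scripts were tested on simulated counts. TPM used GENCODE transcript lengths. Counting intervals are exact binomial (95%, scipy 1.17.1), and figures were drawn with matplotlib 3.10.9. Named genes were all 10, TRMT112, and from each other list the called genes with the smallest p in each line (3 at most) with a mean of at least 50 counts, some of which are not reported here. VIM, ESR1, PGR, GRHL2, KRT14, NECTIN4, CGN, EHF, ZEB1, SNAI1 and the blood and endothelial markers were named after their values were seen. So were ITGB4 and DSP in further lines, and PKP3, KRT86, KRT10, TP63, GATA3, CTNNBL1 and ZEB2 where the rule did not name them. Alternatives were RLE scaling, library size alone, DESeq2 1.42.0, filtering either not at all or at 50 mean counts, a replicate block, each line alone, marked transcripts left out, the main transcript singly, an added log2 threshold of 1, pseudogene counts added, and each of the 12 libraries left out in turn.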

Additional observations from a re-analysis of the deposited data

Results flagged for a closer look

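The change with TRMT112 knockdown differed between MDA-MB-231 and SUM159 for 6 of the 10 mRNAs, by edgeR's test of the difference itself. Of all genes, 50.9% were called in that test, so the count lay near that share. As the log2 change in MDA-MB-231 minus that in SUM159, the difference was 3.25 for CLDN1, 1.38 for KRT7 and 0.28 for KRT18, and -0.53 for KRT8, -0.70 for KRT80 and -0.97 for KRT81. KRT7 rose in the MDA-MB-231 KD group (1.08) and fell in the SUM159 KD group (-0.30), and CLDN1 fell in both, by 0.69 and 3.94. The KRT18 changes behind its difference were small (0.15 and -0.13). Tested by the main transcript alone, the differences of KRT8, KRT18 and KRT81 were not called (adjusted p = 0.414, 0.164 and 0.212, edgeR). The KRT81 call also rested on single SUM159 libraries, as given above. The shRNA left TRMT112 at different levels in the lines (a fall by 1.23 and 0.76), and its part in these differences was not tested.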

How the results depend on the processing

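The number of the 10 mRNAs called stayed within 1.5 times in each of the 7 comparisons under every alternative but 2. Requiring a log2 fold change of at least 1 left 3 calls in MDA-MB-231 KD, 4 in SUM159 KD and 2 for the difference of the KD effects. Among the 78 other listed genes tested, mesenchymal ones included, it left 5 calls in MDA-MB-231 KD and 22 in SUM159 KD. At that threshold 3.20% of all genes were called in MDA-MB-231 KD, 15.7% in SUM159 KD and 15.0% for the difference. Testing the main transcript singly left 3 calls for the difference of the KD effects. Leaving out each of the 12 libraries in turn kept these counts, and those of the other listed genes, within 1.5 times.

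Of the log2 fold changes of the 10 mRNAs, 8 values reversed, 15 calls were lost under other settings and 12 with a library left out. Among them were those of CDH1, KRT8, KRT18 and KRT81 given above and 7 of KRT19. The calls of KRT19 are no test, although the counts of called mRNAs include them. KRT80 between the EV groups of BT549 and SUM159 (-0.03) became 0.047 with RLE scaling, 0.047 with DESeq2 and 0.283 for the main transcript. KRT81 in that comparison (0.04) became -0.171 with library size alone and ran from -0.771 (without BT549 EV replicate 1) to 0.557 as libraries were left out. KRT81 in BT549 OE (-0.80) ran from -1.62 to 0.01, the latter without BT549 EV replicate 1. KRT8 between the EV groups of SUM159 and MDA-MB-231 (-0.47) became 0.003 for its main transcript, whose share of the KRT8 counts differed between the lines. The cause was not tested for the others.

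Samples share replicate numbers across groups, but the numbers did not pair them: the deviations of same-numbered libraries correlated at 0.0029, -0.0299 and 0.0161 in the 3 lines. With the replicate number as a block, 7, 7 and 6 mRNAs were called in MDA-MB-231 KD, SUM159 KD and BT549 OE, as many as without the block, 8 in place of 9 were called between the EV groups of SUM159 and MDA-MB-231, and KRT81 between the EV groups of BT549 and SUM159 became -0.092. With 2 libraries a group, mRNAs under about 10 counts (CDH1, EPCAM, KRT19) could not be compared in most groups.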

Other observations

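Of 11 basal markers listed, 8 were tested, and KRT5, KRT6A and KRT6B have no row. Of all genes, 21.2% were called higher and 16.5% lower in MDA-MB-231 KD, and 35.6% and 35.0% in BT549 OE. In SUM159 KD 7 of the 8 fell and none rose, against 31.4% and 28.6% of all genes. The 7 include KRT14, whose call there is no test. ITGB4 and ITGA6, the subunits of the hemidesmosome integrin that links keratins to the basement membrane, fell by 3.73 ± 0.06 and 1.87 ± 0.05 on the log2 scale (adjusted p = 1.05e-22 and 2.13e-19, edgeR). In MDA-MB-231 KD 2 of the 8 rose and 3 fell, with ITGB4 higher (0.25 ± 0.04, adjusted p = 3.64e-05) and EGFR lower (-0.56 ± 0.04, adjusted p = 5.5e-10). In BT549 OE 1 rose and 6 fell: ITGB4 went from 615 and 597 counts to 3 and 0, ITGA6 fell by 3.40 ± 0.07 (adjusted p = 7.04e-22), and ACTA2, smooth muscle actin of myoepithelial cells, rose by 5.52 ± 0.05 (adjusted p = 3.72e-28).

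Of 5 luminal genes tested, 1 rose and 1 fell in MDA-MB-231 KD, 2 fell in SUM159 KD, and 1 rose and 3 fell in BT549 OE. The shares of all genes called higher and lower are those given with the basal markers. GATA3, the luminal transcription factor, rose in MDA-MB-231 KD (1.81 ± 0.22, adjusted p = 8.08e-07) and fell in SUM159 KD (-1.58 ± 0.18, adjusted p = 4.37e-08) and BT549 OE (-3.04 ± 0.11, adjusted p = 3.83e-17). XBP1, a factor of the secretory pathway, fell in MDA-MB-231 KD (-0.14 ± 0.04, adjusted p = 0.00473) and SUM159 KD (-0.50 ± 0.03, adjusted p = 6.01e-12), and ERBB2 fell in BT549 OE (-0.98 ± 0.04, adjusted p = 1.05e-15). The difference of the KD effects on GATA3 between the lines was 3.39 ± 0.29 (adjusted p = 6.47e-10).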
